A study of Danio rerio with 12 samples.

Results

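Embryos that went through repeated heat peaks in fresh medium (TS) were compared, over all genes, with embryos kept at a constant 27°C in fresh medium (C). The rule takes 6 of the 12 RNA-seq libraries of the series, 3 of TS and 3 of C, by the treatment in their labels. Each library came from 1 pool of 20 whole wild-type embryos of the AB line, a laboratory strain of zebrafish (*Danio rerio*), which carried no transgene. From the blastula stage on, each embryo sat alone in a small tube of fresh medium in constant darkness for 24 h, and was frozen in its pool, unhatched, at 1 dpf (day post fertilization). TS embryos went through 19 cycles that led from 27°C over 29°C to 32°C and back, with 15 min at each step, and C embryos stayed at 27°C. The other 6 libraries, used here only to share the estimate of the spread and for a second look at heat in another medium, came from medium holding metabolites of heat-stressed embryos, at 27°C (SM) or with the same heat cycles (TS + SM). The question was which genes and functions differed in the whole embryo after the heat cycles. No tissue was separated, so a level is a mean over all cells of 20 embryos. The developmental stage of each pool at collection is not given in the files used here. In embryos imaged at this age, the authors report a later stage after heat than in controls. They state that stage-matched controls are still needed to separate heat stress from heat-accelerated development. TS and C were matched by age and not by stage, so any difference given below can include one of stage. The share due to stage was not tested.

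In the heat shock response, heat shock factors switch on genes for chaperones, proteins such as Hsp70 and Hsp90 that hold or refold unfolded proteins. At 1 dpf a zebrafish embryo is finishing segmentation: a clock of *her* and Notch genes in the presomitic mesoderm of the tail has set off 1 somite after another, and *tbx6*, *mesp* and *ripply* genes have placed their borders. During the same hours the first fast muscle fibres build sarcomeres, the lens begins to fill with crystallins, and the first melanin, blood cells and neurons appear. Fish embryos develop faster in warmer water within their tolerated range.

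Gene counts came to between 21340207 and 31663431 per library (median 25987789.5), and 22811 to 24708 genes had counts. Reads that aligned to several places, which were not counted, made up 4.77% to 10.4% of a library and were most frequent in C replicate 2, so genes with close paralogs have uncertain levels. A principal component analysis of log2 CPM (counts scaled to the library total) of the 6 libraries put 67.7% of the variance on PC1, which set replicate 3 of both groups (C 62.1, TS 88.3) apart from the other 4 libraries (-55.8 to -14.9). PC2, with 13.3% of the variance, held the 3 TS libraries between -29.8 and -12.5 and the 3 C libraries between 14.6 and 30.9. Replicate 3 thus stood apart in TS and in C alike, and several medians of gene lists turned sign without it, as given below. The defining markers of the main tissues were present in both groups: among them *actc1b* and *myhz2* of fast muscle, *elavl3* of neurons, *krt4* of the periderm, *hbae3* of red blood cells and *pmela* of melanophores. The lens marker *cryaa* was near 0, with at most 9.62 normalized counts, and was not tested. Of the other markers looked up, *mpx*, *he1a* and *vmhc* were not matched to an identifier.

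**Figure D1:**
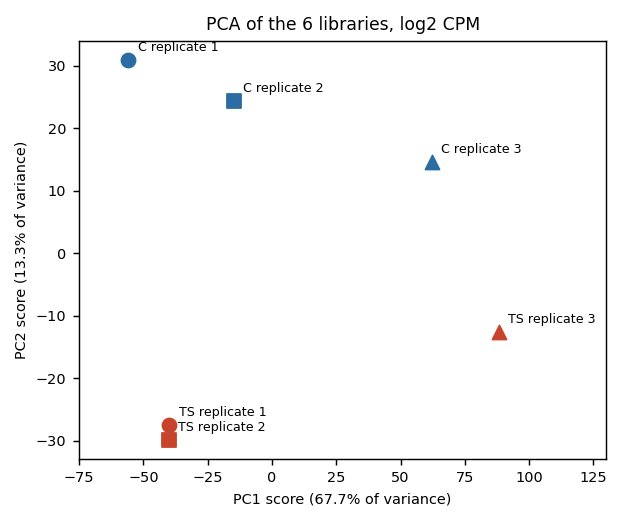
Principal components 1 and 2 (x and y axes, in units of log2 CPM) of the 6 libraries of TS and C, 1 point per library, labelled by group and replicate. PC1, 67.7% of the variance, sets replicate 3 of both groups apart, and PC2, 13.3%, sets the 3 TS libraries below 0 and the 3 C libraries above 0.

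Values are normalized counts (counts divided by the effective library size and scaled to its mean), given in the order of replicates 1, 2 and 3, and the LFC is the log2 ratio of TS to C from edgeR's quasi-likelihood fit of the 12 libraries, with its SE. *P*-adj is its two-sided *P* after Benjamini-Hochberg adjustment over the 18688 genes tested. At a *P*-adj of 0.05, 14 genes rose in TS (0.0749% of the genes tested) and 4 fell (0.0214%). In all 18 the 3 TS libraries lay on 1 side of the 3 C libraries, from which it follows that same-numbered libraries differed in that direction too. Such a separation was found for 5.81% of all genes towards higher and 5.47% towards lower levels in TS. The median LFC of the 14 rises was 1.72. The rises are 4 lens genes (*cryba1b*, *cryba1l1*, *crygm2d13* and *mipa*), 3 of muscle (*atp2a1l*, *tcap* and *pvalb1*), 2 chaperones (*hsp90aa1.2* and *hsp70.3*), 2 of the fin fold (*and2* and *and3*), the ADP/ATP carrier *slc25a4*, the elongation factor gene *eef2l2* and *si:ch211-255p10.3*. The falls are the segmentation genes *her1* and *tbx6* and the cyclotransferase genes *ggact.2* and *ggact.3*.

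At an unadjusted *P* of 0.01 or less, a looser threshold used below to describe lists, 213 genes were higher (1.14%) and 59 lower (0.316%). Of the 272, 111 had an LFC of at least 1 and 32 an LFC of at most -1, and 268 did not overlap between the groups. If no gene differed, a fraction of 0.01 of the tested genes would pass this threshold by chance, counted over both directions. The 59 lower genes are fewer than an even share of that number, and those above a *P*-adj of 0.05 can be chance results. That share assumes that the fit estimates the spread between pools correctly, which was not tested. An edgeR fit of 6 libraries with a replicate block, described below, had 260 lower genes at this threshold. The comparison thus cannot tell how many of the 59 are chance results. Genes past the threshold can have a high *P*-adj, such as 0.653 for *otofa* and 0.426 for *EGR2* (edgeR with Benjamini-Hochberg adjustment). Below, higher or lower at this threshold describes a gene and does not call it. DESeq2 called 97 genes higher (0.519%) and 16 lower (0.0857%) at a *P*-adj of 0.05, the 18 among them. Same-numbered libraries of TS and C deviated from their group means together, as did those numbered 1 and 2 across numbers. An edgeR fit of the 6 libraries with the replicate number as a block, added after seeing the data, called 253 genes higher (1.42%) and 79 lower (0.444%) of 17785. These 332 hold the 18 and 188 of the 272. With the 6 libraries alone and no block, edgeR called 0 genes, with 221 higher and 47 lower at an unadjusted *P* of 0.01. Leaving out any 1 of the 12 libraries kept between 7 (without C replicate 2) and 16 (without TS + SM replicate 3) of the 18 calls. The sign of the LFC stayed the same in each case, which the lack of overlap between the groups all but ensured. In bulk RNA from whole embryos, more cells of a type and more RNA per cell cannot be told apart, and this holds for every tissue named below. List members named for contrast, such as *hsf1*, *dlc* or *elavl3*, were in part chosen after their values were seen.

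**Figure D2:**
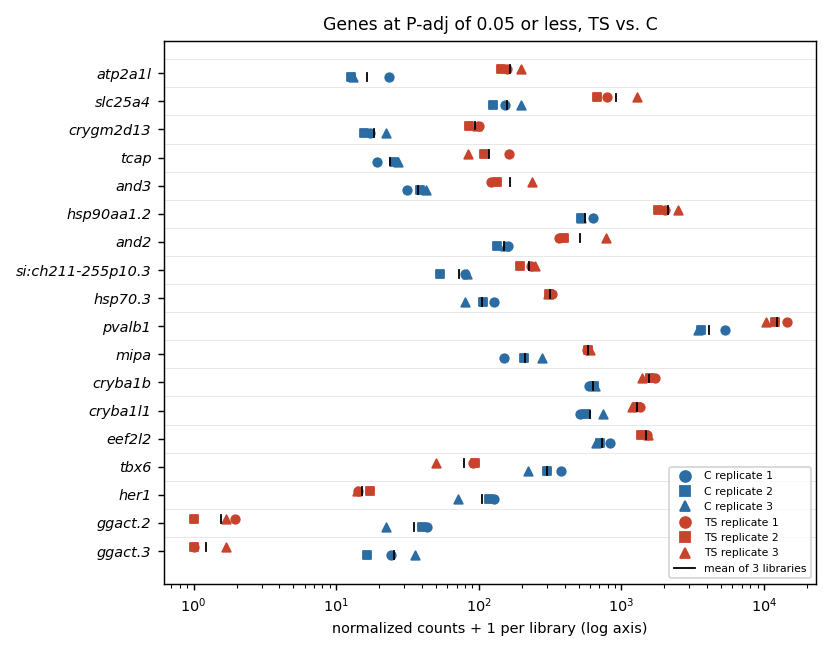
Normalized counts + 1 (log axis) of the 18 genes at a *P*-adj of 0.05 or less in edgeR with Benjamini-Hochberg adjustment, 1 point per library of C and TS, with a black tick at the mean of the 3 libraries of a group. In each gene the 3 TS points lie beyond the 3 C points, above them in 14 genes and below them in 4.

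Among chaperone genes a few inducible members were higher, and the list as a whole stayed near 0. Of the 51 tested genes for cytosolic and nuclear chaperones, 6 were higher and 0 lower at an unadjusted *P* of 0.01, and the median LFC was 0.14, beside 0.00 over all genes. *hsp90aa1.2*, the heat-inducible cytosolic Hsp90, had 630.3, 523 and 519 normalized counts in C and 2018, 1805 and 2490.3 in TS. The lowest TS library was far above the highest C library. The LFC of *hsp90aa1.2* was 1.92 (SE 0.17; edgeR with Benjamini-Hochberg adjustment, *P*-adj = 0.00153), the smallest *P*-adj of all genes. *hsp70.3*, an inducible Hsp70, rose from 127, 106 and 79.3 normalized counts in C to 327, 311 and 304 in TS, an LFC of 1.60 (SE 0.19; edgeR with Benjamini-Hochberg adjustment, *P*-adj = 0.00733). The TS libraries of *hsp70.3* were closer to each other than the C libraries were. The small heat shock protein gene *hspb9* had 258, 202 and 294 in C and 734, 498 and 1226 in TS (LFC 1.71, SE 0.35). The Hsp70 relatives *hspa8b* (27.4, 25.3 and 14.9 in C, 85.3, 75.8 and 77.0 in TS) and *hsc70* (13.2, 7.78 and 8.39 in C, 34.1, 52.8 and 55.0 in TS) had LFCs of 1.81 and 2.26, and these 3 genes were among the 6 without reaching a *P*-adj of 0.05. The sixth was the myosin chaperone partner *SMYD1* (ENSDARG00000009280), which encodes a muscle methyltransferase, with an LFC of 0.61.

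Most other chaperone genes had LFCs nearer 0. The muscle Hsp90 gene *hsp90aa1.1* had 10902, 8238 and 10283 in C and 7209, 6158 and 14055 in TS, and the groups overlapped (LFC -0.10, SE 0.34). The constitutive *hsp90ab1* and *hspa8* had LFCs of 0.23 (SE 0.27) and 0.17 (SE 0.28). *hsp70l*, another inducible Hsp70, had 27.4, 21.4 and 20.5 in C and 54.0, 29.8 and 32.3 in TS, with 1 TS library clearly above C and an LFC of 0.74 (SE 0.37). The Hsp110 gene *hsph1*, a nucleotide exchange factor of Hsp70, was at 105, 116 and 71.8 in C and 264, 246 and 108 in TS (LFC 1.07), with replicate 3 low in both groups. It was called with the block in the 6-library fit (edgeR with Benjamini-Hochberg adjustment, *P*-adj = 0.0113) and not in the fit of all libraries (0.965). The transcription factors *hsf1* and *hsf2* had LFCs of -0.09 and -0.07. In mitochondria the chaperone list (13 genes, median LFC 0.00), in the endoplasmic reticulum the unfolded protein response (32 genes, median -0.01) and in the cytosol the chaperonin CCT (8 genes, median 0.08) held no gene at an unadjusted *P* of 0.01. *hspd1* and *hspa5*, the Hsp60 and BiP genes, had LFCs of 0.04 (SE 0.18) and 0.16 (SE 0.18). The cold-inducible RNA-binding protein genes *cirbpa* and *cirbpb* were at -0.20 and 0.08 on the LFC scale, and of 13 temperature response regulators 0 passed the looser threshold.

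Many crystallins and some other genes of the lens were higher. Of 13 tested beta crystallins, structural proteins of the lens fibre, 7 were higher and 0 lower at an unadjusted *P* of 0.01, with a median LFC of 1.01. Of 16 tested gamma crystallins, which pack at high density, 11 were higher and 0 lower, with a median of 1.69. Another 25 gamma crystallin genes had too few counts to be tested, so the median is that of the genes the low-count filter let through. The filter also admits a gene that is low in C when its heated libraries are high, so the median and the share of higher genes can be too high. *crygm2d18*, at the limit of detection (3 counts) in C and at least 5.18-fold higher in TS, passed it only through libraries outside C. Summed over all 57 beta and gamma crystallin identifiers, tested or not, C libraries held 4422, 4866 and 7316 normalized counts and TS libraries 11047, 10114 and 13549. The lowest TS sum was above the highest C sum, and the means differed 2.09-fold. *cryba1b* rose from 593, 643 and 649 to 1719, 1593 and 1396 normalized counts (LFC 1.32, SE 0.14; edgeR with Benjamini-Hochberg adjustment, *P*-adj = 0.00515). *cryba1l1* rose from 513, 562 and 741 to 1343, 1295 and 1188 (LFC 1.07, SE 0.17), with an edgeR *P*-adj of 0.0449 and, with the replicate block over 12 libraries, 0.0749 (Benjamini-Hochberg). *crybb1l1*, at 365, 452 and 788 in C and 1369, 1205 and 1684 in TS, had the highest LFC of the beta crystallins (1.41, SE 0.30) without reaching a *P*-adj of 0.05. *crybb1*, *crybb1l2*, *cryba2a* and *cryba2b* were the others past the looser threshold, with LFCs from 1.01 to 1.2.

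Not all crystallins were higher. The distant relatives *crybg1a* and *crybg1b*, which are also used outside the lens, had LFCs of 0.21 and 0.01, and *crybb3* was at 46.6, 24.3 and 27.0 in C and 26.5, 25.7 and 15.8 in TS. Among the gamma M crystallins, a class of fish lenses, *crygm2d13* rose from 16.2, 14.6 and 21.4 to 98.5, 84.0 and 96.9, and *crygm2d20*, *crygm2d7*, *crygm2d10*, *crygm2d21*, *crygm2d8* and *crygm2d3* had LFCs between 1.57 and 2.24. *crygmx* was at 39.5, 32.1 and 83.0 in C and 206, 133 and 153 in TS (LFC 1.67, SE 0.35). The 1 tested gamma crystallin below 0 was *CRYGN* (ENSDARG00000102129), with 39.5, 14.6 and 3.73 in C and 1.89, 9.48 and 4.81 in TS, where C replicate 1 alone was high. These near-identical genes can share reads, and each single level is therefore uncertain. Of 22 other lens genes, 4 were higher and 0 lower. They are the fibre membrane genes *mipa* and *mipb*, which encode the lens water channels, and *lim2.3* and *lim2.4*, which encode junction proteins. *mipa* rose from 149, 207 and 274 to 573, 581 and 599 normalized counts (LFC 1.47, SE 0.21; edgeR with Benjamini-Hochberg adjustment, *P*-adj = 0.0259), and the TS libraries were nearly level, with C replicate 1 the lowest of all. *mipb* had 21.3, 25.3 and 55.0 in C and 97.6, 85.3 and 123 in TS. The lens transcription factors *foxe3*, *pitx3* and *PROX1* were near 0 on the LFC scale (0.02, 0.21 and 0.16). In the list of the retina and eye field, 24 genes with a median LFC of 0.11, 2 were higher and 0 lower at the looser threshold. They are *pmela*, which is also in the melanophore list and given there, and the photoreceptor phosphodiesterase gene *PDE6G* (36.5, 33.1 and 27.0 in C, 74.8, 107 and 66.7 in TS, LFC 1.36). The eye field genes *rx1*, *rx2* and *rx3* had LFCs between -0.01 and 0.04.

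Muscle lists had medians above 0, with few single calls. Of 34 genes of the fast fibre sarcomere, 33 had an LFC above 0 and the median was 0.51; 3 were higher at an unadjusted *P* of 0.01 and 13 had TS above C without overlap. Replicate 3 gave the largest shift, with median log2 differences of 0.20, 0.35 and 0.89 between TS and C libraries numbered 1, 2 and 3. The 3 genes are the myosin heavy chain *myhz2* (6198, 5529 and 3554 in C, 11082, 9140 and 10430 in TS, LFC 1.00, SE 0.26), the myosin light chain *MYL11* (ENSDARG00000002589, LFC 0.90) and the alpha-actinin *actn3a* (LFC 0.74). A more abundant gene named *MYL11* (ENSDARG00000053254) had 72314, 48777 and 42642 in C and 81116, 68151 and 77488 in TS. Its groups overlapped, with an LFC of 0.47. *actc1b*, the main alpha-actin of embryonic fast muscle, had 53489.9, 43069.9 and 62777 in C and 62556, 54994 and 115252 in TS, and its groups overlapped. Slow fibre genes were closer to 0 (16 genes, median 0.25, 0 past the looser threshold), with *smyhc1*, the slow myosin of the first fibres, at an LFC of 0.28 (SE 0.23). Their median log2 difference was -0.11, 0.11 and 0.61 between libraries numbered 1, 2 and 3.

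At the Z-disc and costamere, where sarcomeres are anchored to each other and to the membrane, 9 of 32 genes were higher and 0 lower, with a median LFC of 0.47. Here too the median log2 difference was largest between libraries numbered 3 (0.17, 0.34 and 0.87 for numbers 1, 2 and 3). *tcap*, the titin cap protein that also senses stretch, rose from 18.2, 24.3 and 26.1 to 161, 107 and 83.1 normalized counts (LFC 2.35, SE 0.33; edgeR with Benjamini-Hochberg adjustment, *P*-adj = 0.0234). The myozenins *myoz1a*, *myoz1b* and *myoz3a*, which tie calcineurin to the Z-disc, had LFCs of 1.35, 1.05 and 1.33. Both muscle calpain genes and the caveolar gene *cavin4a* (LFC 1.13) were among the 9. *capn3b* had 152, 136 and 81.1 in C and 351, 359 and 380 in TS and *CAPN3* 56.7, 57.4 and 65.3 in C and 179, 142 and 187 in TS, in either gene without overlap. *XIRP2* (ENSDARG00000091090), an actin-binding Xin repeat gene, had 12.2, 2.92 and 11.2 in C and 32.2, 28.4 and 88.0 in TS and an LFC of 2.5 (SE 0.79), with TS replicate 3 the highest. Structural members such as desmin (*DES*, 0.35), dystrophin (*dmd*, 0.00) and *smpx* (-0.02) had LFCs nearer 0.

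Calcium handling genes showed the largest single rise of muscle. Of 36 genes, 8 were higher and 1 lower at an unadjusted *P* of 0.01, with a median LFC of 0.48. Replicate 3 again gave the largest shift, with median log2 differences of 0.12, 0.28 and 0.92 between libraries numbered 1, 2 and 3. *atp2a1l*, a sarcoplasmic calcium pump gene, rose from 22.3, 11.7 and 12.1 to 156, 142 and 197, while its relative *atp2a1* had 55547, 40254 and 33772 in C and 60252, 54109.7 and 80802 in TS and an LFC of 0.59 (SE 0.26). *pvalb1*, a parvalbumin that buffers calcium in fast fibres, rose from 5312, 3596 and 3453 to 14424, 11953 and 10361 (LFC 1.57, SE 0.24; edgeR with Benjamini-Hochberg adjustment, *P*-adj = 0.0390). Of the other parvalbumins, *pvalb3*, *pvalb4*, *pvalb5* and *pvalb8* passed the looser threshold with LFCs between 1.12 and 1.49, and *pvalb4* passed a *P*-adj of 0.05 with the replicate block over 12 libraries (0.0399; edgeR with Benjamini-Hochberg adjustment, 0.155 without it). *pvalb2*, at 5743, 4229 and 5892 in C and 8450.2, 6434 and 13901 in TS, had an LFC of 0.86, and *pvalb9* 0.17. *casq1a*, which stores calcium in the sarcoplasmic reticulum, had 658, 386 and 381 in C and 1021, 1001 and 1302 in TS (LFC 1.22), and *jph2*, which joins that store to the surface membrane, an LFC of 1.01. The 1 lower gene was *chrng*, the gamma subunit of the embryonic acetylcholine receptor, with 877, 863 and 767 in C and 599, 599.9 and 638 in TS (LFC -0.45).

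Energy-buffering genes went the same way, 3 of 19 being higher and 0 lower with a median LFC of 0.43. *slc25a4*, the ADP/ATP carrier of muscle mitochondria in mammals, rose from 152, 124 and 196 to 787, 668 and 1291 normalized counts. Its relatives *slc25a5* (0.26, SE 0.25) and *slc25a6* (0.24, SE 1.12) had smaller LFCs, and 1 other of the 50 mitochondrial carriers tested, *slc25a55b* (LFC 0.82), was higher at the looser threshold. The mitochondrial creatine kinase *ckmt2b* (54.7, 51.5 and 43.8 in C, 86.2, 98.9 and 122 in TS) had an LFC of 1.03 and the adenylate kinase *ak1* 0.77, while the cytosolic muscle creatine kinases *ckma* and *ckmb* had 0.71 and 0.60 with overlapping groups. Regulators of muscle precursors, most of them transcription factors, had a median below 0: of 23 genes, 0 were higher and 1 lower, with a median LFC of -0.17. *myog*, which drives fusion and differentiation of muscle precursors, had 1521, 1097 and 1107 in C and 621, 654 and 694 in TS (LFC -0.92, SE 0.19). *mymk*, the membrane protein that fuses them, had 911, 689 and 650 in C and 346, 282 and 502 in TS (LFC -0.99), and all 3 TS libraries of either gene were below C.

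Glycolytic genes were higher at several steps, from glucose uptake to lactate export. Of 44 tested, 12 were higher and 0 lower at an unadjusted *P* of 0.01, 21 had TS above C without overlap, and the median LFC was 0.52. Within the pairs of libraries 1, 2 and 3 the median log2 difference was 0.40, 0.46 and 0.68. In the fit of the 12 libraries without a block each of the 12 stayed above the *P*-adj threshold. With the replicate block *ldha*, which makes lactate, passed it (edgeR with Benjamini-Hochberg adjustment, *P*-adj = 0.0392; 0.182 without the block). *gapdh* was at 12674, 9851 and 11050.1 in C and 17044, 15499.6 and 24703 in TS (LFC 0.77, SE 0.24). *pkmb*, a pyruvate kinase, had the highest LFC of the list, 1.44 (SE 0.34), with 124, 127 and 159 in C and 265, 244 and 603 in TS. *pgm1*, which links glycogen to glycolysis, had 715, 620.4 and 887 in C and 1142, 1209 and 1957 in TS (LFC 0.96), and *pgam2*, the muscle form of phosphoglycerate mutase, 942, 726 and 805 in C and 1220.3, 1022 and 1794 in TS (LFC 0.71). The glucose transporter *slc2a3a* and the lactate transporter *SLC16A3* (ENSDARG00000045051) had LFCs of 0.53 and 0.65. The hexokinases *hk1* (0.03) and *hk2* (-0.25), which start the pathway, and the liver form of pyruvate kinase, *pklr* (-0.23), had LFCs near or below 0.

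Neighbouring routes of metabolism moved less. Of 25 genes of gluconeogenesis and glycogen, 1 was higher, the muscle glycogen phosphorylase *PYGM* (ENSDARG00000013317, LFC 0.51), and the list median of 0.40 was -0.03 without TS replicate 3. The citric acid cycle (35 genes) had a median LFC of 0.13, the nuclear genes of oxidative phosphorylation (88) 0.05 and the 13 protein genes of the mitochondrial genome 0.20. Of these 3 lists, *cox4i1l* (LFC 1.06) and *ndufa4b* (LFC 0.66), both subunits of cytochrome oxidase, were the genes past the looser threshold. *ndufa4b* had 1446, 1283 and 1281 in C and 2226, 2191 and 1929 in TS. In the hypoxia list, which shares glycolytic genes, 3 of 38 were higher and 0 lower, with a median of 0.27. They are the growth factor binding gene *IGFBP1* (412, 503 and 569 in C, 767, 807 and 713 in TS), the collagen prolyl hydroxylase *p4ha2* and the glycolytic regulator *PFKFB4*, with LFCs between 0.52 and 0.62. *HIF1A* itself had an LFC of 0.05 (SE 0.17). In the list of the pentose phosphate pathway and NADPH, 19 genes with a median of 0.08 (-0.01 without TS replicate 3), the transketolase *TKT* (37.5, 37.9 and 28.0 in C, 59.7, 86.7 and 80.4 in TS) and the aldehyde dehydrogenases *aldh18a1* and *aldh1l1* were higher. Not all genes of this list supply NADPH.

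Some segmentation genes were lower, among them cyclic genes of the clock and genes of somite borders. Of 47 genes of the clock and of somite borders, 8 were lower and 0 higher at an unadjusted *P* of 0.01, with a median LFC of -0.07, and most of the list was near 0. An LFC below 0 was found for 28 and above 0 for 19. In 13 TS lay below C without overlap and in 0 above, beside 5.47% and 5.81% of all genes. *her1*, a cyclic repressor at the core of the clock, fell from 127, 118 and 69.9 to 13.3, 16.3 and 13.1 normalized counts, and *tbx6*, the T-box factor of the presomitic mesoderm, from 376, 299 and 222 to 90, 93.4 and 48.8 (LFC -1.96, SE 0.31; edgeR with Benjamini-Hochberg adjustment, *P*-adj = 0.0390). *her7*, which pairs with *her1*, had 50.7, 29.2 and 28.0 in C and 7.58, 10.8 and 6.18 in TS (LFC -2.14). *mespab*, which marks the rostral part of the next somite, was at 64.9, 30.1 and 20.5 in C and 2.84, 5.42 and 1.37 in TS, and it passed a *P*-adj of 0.05 with the replicate block over 12 libraries (edgeR with Benjamini-Hochberg adjustment, 0.0392; 0.0885 without it). Its relatives *mespbb*, *mespba* and *mespaa* had LFCs of -2.06, -2.10 and -2.25, at mean levels of 10.7 to 20.4 normalized counts in C. *ripply2*, which switches off *tbx6* at the border, had 46.6, 25.3 and 33.6 in C and 10.4, 6.77 and 3.44 in TS (LFC -2.36), and *ripply1* 518, 356 and 254 in C and 190.4, 206 and 137 in TS (LFC -1.08). *pcdh8*, the paraxial protocadherin that keeps somite cells together, had 195, 159 and 173 in C and 47.4, 85.3 and 50.9 in TS (LFC -1.53).

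Several other members of the clock list were near 0, while *her11*, *tbx18* and *tbx16l* had LFCs of -0.63, -0.53 and -0.50 without passing the looser threshold. The cyclic gene *dlc* had an LFC of 0.04 (SE 0.38), *her12* -0.28 (SE 0.14), *lfng* 0.02 and *her15.1* 0.02, and the Notch receptor genes *notch3* and *NOTCH1* (ENSDARG00000103554) 0.08 and 0.05. The factors of the immature presomitic mesoderm lay between: *msgn1* had 303, 226 and 197 in C and 104.2, 184 and 61.2 in TS (LFC -1.07) and *tbx16* 202, 171 and 93.2 in C and 129, 96.2 and 48.8 in TS (LFC -0.77), both with C replicate 1 or 2 highest. Of 33 tailbud progenitor genes 0 passed the looser threshold in either direction (median -0.04), with *tbxta*, the Brachyury gene of tailbud and notochord, at 0.07 and *cdx4* at -0.70 (edgeR with Benjamini-Hochberg adjustment and the block in 6 libraries, *P*-adj = 0.0122). The 48 *hox* genes, which give axial position, had a median LFC of -0.13, and 40 were below 0. None of the 48 passed the looser threshold, and their lowest LFC was -0.58 (*hoxd13a*, SE 0.39).

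**Figure D3:**
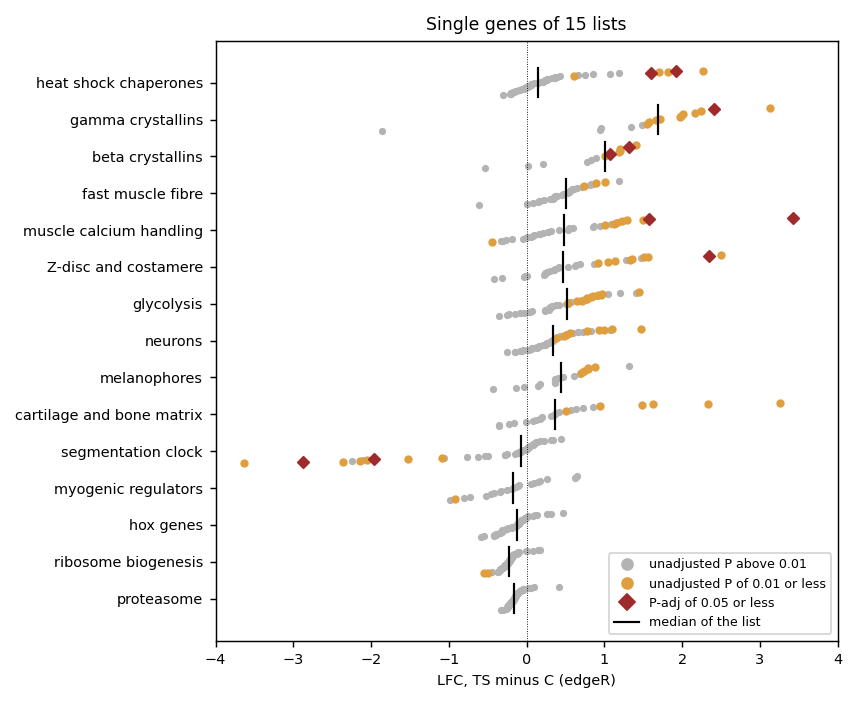
LFC of TS against C (x axis, log2 scale) of every tested gene of 15 lists, 1 point per gene, coloured by whether it reached an unadjusted *P* of 0.01 or a *P*-adj of 0.05 in edgeR with Benjamini-Hochberg adjustment, with a black line at the median of each list. Crystallin, muscle and glycolysis lists lie mostly above 0, the segmentation list has a tail of lower genes with most members near 0, and ribosome biogenesis has 58 of 61 genes below 0.

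In glutathione and redox metabolism 2 genes fell and the list as a whole had a median near 0. Of 47 genes of the antioxidant list (glutathione, thioredoxin and detoxification), 5 were higher and 2 lower at an unadjusted *P* of 0.01, with a median LFC of 0.01. Not all of these encode antioxidant enzymes. *ggact.2* and *ggact.3*, tandem copies for an enzyme that splits gamma-glutamylamines, had 1, 0 and 1 and 0, 0 and 1 raw counts in the 3 TS libraries, the limit of detection being set at 3. In C they had 42.6, 38.9 and 21.4 and 23.3, 15.6 and 34.5 normalized counts, and they were at least 11.5-fold and at least 8.18-fold lower in TS (edgeR with Benjamini-Hochberg adjustment, *P*-adj = 0.00850 and 0.0120). The third family member tested, *GGACT*, had 5.07, 8.75 and 21.4 in C and 2.84, 4.06 and 10.3 in TS (LFC -0.97, SE 0.65), with no gap between the groups. *GGCT* (LFC -0.23), a cyclotransferase that acts on gamma-glutamyl amino acids, and the glutathione synthesis genes *gclc* (-0.14), *gclm* (-0.16) and *gss* (0.18) were near 0.

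The 5 higher genes of the list include both copies of the thioredoxin-interacting protein, which also lowers glucose uptake: *txnipa* had 5711, 5227 and 5461 in C and 7941, 8179.8 and 9134 in TS (LFC 0.62) and *txnipb* 254, 242 and 191 in C and 441, 381 and 484 in TS (LFC 0.93). *arrdc3b*, a related arrestin, had 930.2, 953 and 1216 in C and 1625, 1598 and 1621 in TS (LFC 0.64). The mitochondrial superoxide dismutase *sod2* had 94.2, 66.1 and 91.4 in C and 159, 203 and 129.9 in TS (LFC 0.96, SE 0.31), and *prdx6* an LFC of 0.44. The Nrf2 gene *NFE2L2* was at 297, 214 and 234 in C and 473, 437 and 333 in TS (LFC 0.74), and its targets *HMOX1* (0.31), *srxn1* (0.02) and *gsta.1* (-0.40) had LFCs on either side of 0. Among 18 iron genes the ferritin-like *fthl28* was higher (34.5, 20.4 and 26.1 in C, 149.7, 137 and 26.8 in TS, LFC 1.94), with TS replicate 3 at the level of C, while *fth1a*, a main ferritin, had an LFC of 0.10 (SE 0.26). Genes of cell death and its control (53, median -0.05) held 1 past the looser threshold, *pdcd4b*, a translation inhibitor, with 583, 492 and 553 in C and 1054, 1033 and 887 in TS. It passed a *P*-adj of 0.05 with the replicate block over 12 libraries (edgeR with Benjamini-Hochberg adjustment, 0.0399; 0.0885 without it). Stress hormone genes (23 tested, 12 too low to be tested, median 0.11) and the circadian clock (41, median 0.07) held 0 at an unadjusted *P* of 0.01. The glucocorticoid receptor *nr3c1* had an LFC of 0.15 (SE 0.16), and its target *fkbp5* -0.36 (SE 0.36).

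The 3 actinodin genes of the fin fold and a few genes of the skeletal matrix were higher, while most members of both lists did not pass the test. *and1*, *and2* and *and3* encode actinodins, proteins of the rigid fibres that hold the fin fold open. *and2* rose from 160.1, 134 and 151 to 364, 397 and 778 (LFC 1.79, SE 0.27; edgeR with Benjamini-Hochberg adjustment, *P*-adj = 0.0382, and 0.0611 with the replicate block over 12 libraries). *and3* rose from 30.4, 37.9 and 42.0 to 121, 134 and 236 (LFC 2.16, SE 0.33; edgeR with Benjamini-Hochberg adjustment, *P*-adj = 0.0387), and *and1* had 559, 492 and 443 in C and 1203, 1223 and 1420.4 in TS (LFC 1.36). The 3 genes thus shared the direction. Of the other 29 of the 32 fin fold genes, *COL1A1* passed the looser threshold, 11 had LFCs below 0, and all 29 lay between -0.32 (*msx1a*) and 0.60 (*fbln1*) on the LFC scale. The list median was 0.10, and -0.01 without TS replicate 3. Among 25 tested genes of cartilage and bone matrix (10 more were too low to be tested), 6 were higher and 0 lower (median 0.36). Beside *matn3a* (6.08, 4.86 and 1.86 in C, 36.0, 50.1 and 39.2 in TS), they are the leucine-rich repeat gene *chad* (103, 52.5 and 43.8 in C, 196, 188 and 231 in TS, LFC 1.63), *fgfbp2a*, which releases growth factors from the matrix (3.04, 7.78 and 10.3 in C, 17.1, 27.1 and 63.2 in TS, LFC 2.33), *itgbl1* (LFC 1.49), *MATN3* (LFC 0.95) and *col11a1b* (LFC 0.50). The bone regulator *sp7* and the cartilage regulator *SOX9* (ENSDARG00000043923) had LFCs of -0.36 and 0.08. As with the gamma crystallins, the filter can admit a gene low in C, such as *matn3a* or *fgfbp2a*, through its heated libraries. The median of the cartilage and bone list and its count of higher genes can therefore be too high. Of 50 collagens, 42 had an LFC above 0 and 4 were higher at the looser threshold: *col6a1* (464, 437 and 541 in C, 784, 665 and 1134 in TS, LFC 0.84), *col6a2* (LFC 0.67), *COL1A1* (LFC 0.60) and *col11a1b*. The first pair encode microfibril chains that surround muscle fibres. The collagen median of 0.34 was largest in the third pair of libraries (0.22, 0.02 and 0.55 in pairs 1, 2 and 3). The notochord list (27 genes, median 0.21, with -0.004, 0.08 and 0.55 in pairs 1, 2 and 3) held 1 higher gene, *MATN3*.

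Several genes of differentiated neurons were higher, and those of neural progenitors were near 0. Of 61 neuronal genes, 55 had an LFC above 0, 9 were higher and 0 lower at an unadjusted *P* of 0.01, and the median was 0.33. The median log2 difference was smallest in the third pair (0.40, 0.37 and 0.18). The neurofilament genes *neflb* (46.6, 42.8 and 47.6 in C, 119, 125 and 137 in TS, LFC 1.48) and *nefma* (111, 108 and 142 in C, 195, 211 and 282 in TS, LFC 0.93) and the neuropeptide gene *cckb* (LFC 1.1) were among the 9. *sult4a1*, a brain sulfotransferase, the synaptic genes *vamp1a* and *SYN2*, the sodium pump subunit gene *atp1a3a*, the catenin gene *ctnna2* and *rtn1a*, a reticulon of the endoplasmic reticulum, had LFCs between 0.38 and 1.00. The pan-neuronal RNA-binding genes *elavl3* and *elavl4* had overlapping groups (0.15 and 0.35 on the LFC scale). Neural progenitors (47 genes, median 0.09) held 0 higher genes and 1 lower, the hindbrain patterning gene *EGR2*, with 318, 266 and 219 in C and 173, 156 and 93.5 in TS (LFC -0.93, SE 0.26). *sox2*, *sox3* and *sox19a* had LFCs of 0.06, 0.02 and -0.05. In the ear and lateral line (28 genes, median -0.03) 1 gene was higher, *otofa*, which drives transmitter release in hair cells (LFC 0.65).

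Several genes of melanin synthesis were higher. Of 20 melanophore genes, 17 had an LFC above 0 and 5 were higher and 0 lower at an unadjusted *P* of 0.01, with a median of 0.44. *pmela*, which builds the fibrils that carry melanin, had 1508, 1494 and 1717 in C and 2641, 2299.6 and 2739 in TS (LFC 0.70, SE 0.17), and *pmelb* 267, 248 and 408 in C and 522, 485 and 588 in TS (LFC 0.79). The enzyme genes *tyrp1b* (LFC 0.79) and *TYRP1* (LFC 0.74) and *zgc:91968* (LFC 0.88) were the others past the threshold, and *dct* had an LFC of 0.72 without passing it. *tyr*, the first enzyme of melanin synthesis, had 54.7, 93.3 and 325 in C and 75.8, 82.6 and 448 in TS, with replicate 3 high in both groups, and the lineage factors *sox10* (-0.04) and *MITF* (0.18) were near 0. The other pigment cells (16 genes) had a median of 0.33, which turned to -0.18 without TS replicate 3.

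In the blood, skin and yolk lists replicate 3 had a large part in the median. Red blood cell genes (31, median 0.33) held 0 at an unadjusted *P* of 0.01, and the median log2 difference was -0.10, 0.21 and 0.83 in the 3 pairs. The embryonic globin *hbae3* had 11682, 7369 and 14763 in C and 10929.7, 13468 and 34093 in TS, with TS replicate 3 far above any other library. Leukocyte genes (33 tested, 14 too low to be tested) had a median of 0.31, and 4 were higher: the neutrophil enzymes *npsn* (37.5, 36.9 and 41.0 in C, 58.7, 109.7 and 115 in TS) and *lyz* (19.3, 12.6 and 17.7 in C, 22.7, 44.7 and 52.2 in TS), the granule proteoglycan *srgn* and the actin regulator *coro1a* (71.9, 52.5 and 87.7 in C, 114, 148 and 177 in TS). Their LFCs lay between 1.05 and 1.29. The phagocyte regulators *SPI1* and *irf8* had LFCs of 0.06 and -0.15. In the immune response list (32 tested genes, 13 too low, median 0.09) *tcima* and the complement factor *cfb* were higher, with LFCs of 0.88 and 0.68. Endothelial genes (25, median -0.11) held 0 past the looser threshold, with the vascular receptors *kdrl* at -0.03 and *tek* at -0.66.

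In the skin, 1 of 42 periderm and epidermis genes was higher, *krt15* (299, 366 and 407 in C, 788, 689 and 455 in TS, LFC 0.85), and the abundant *krt4* and *krt5* had LFCs of 0.26 and -0.23. Ionocyte genes (21, median 0.33) had a median of -0.03 without TS replicate 3. The list of liver, gut and yolk (40 genes, median 0.34) turned to -0.26 without it. Its 1 gene past the threshold was the vitronectin gene *VTN* (ENSDARG00000055388, LFC 1.21), and the apolipoprotein *apoa1a* had 22094, 18630.5 and 37881 in C and 23393, 24810.2 and 69596 in TS. In the heart list (26, median 0.16, -0.10 without TS replicate 3) *nppa*, the natriuretic peptide gene of the chambers, was higher (20.3, 27.2 and 28.9 in C, 47.4, 62.3 and 137 in TS, LFC 1.69). Of 32 claudins, tight junction genes, 24 had an LFC below 0 and the median was -0.09; 0 were lower at the looser threshold and 1 was higher, *cldn11a* (48.6, 40.8 and 63.4 in C, 109, 106 and 133 in TS, LFC 1.18).

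Most genes of ribosome building and of the proteasome had an LFC slightly below 0, and none reached a *P*-adj of 0.05 in the fit of the 12 libraries. Of 61 genes listed for ribosome biogenesis and the nucleolus, 58 had an LFC below 0 and 35 had TS below C without overlap, with a median of -0.23. Not all of the 61 process rRNA. The median log2 difference was below 0 in the 3 pairs (-0.31, -0.14 and -0.28), and 2 genes were lower at an unadjusted *P* of 0.01. They are *pprc1*, a coactivator of nuclear genes for mitochondria, with 1295, 1357 and 1308 in C and 910.5, 903 and 900.2 in TS (LFC -0.55, SE 0.11), and *nol10* of the small subunit processome, with 1239, 1087 and 1037 in C and 811, 823 and 750.4 in TS (LFC -0.50). The nucleolar genes *nop2* (-0.36), *PES1* (-0.34) and *gar1* (-0.37) had smaller shifts that did not pass. Of 52 proteasome genes 48 were below 0 (median -0.16) and 0 passed the looser threshold. Cytosolic ribosomal proteins (81 genes, median 0.17, 77 above 0) differed in sign between the pairs, at 0.17, 0.41 and -0.21, and mitochondrial ribosomal proteins had a median of -0.07 over 75 genes. The 76 genes of cell division had a median of -0.04 (0.05 without replicate 3 of both groups and 0.08 without C replicate 3), none past the looser threshold, with *cdk1* at 0.02 (SE 0.18) and *top2a* at 0.11 (SE 0.28). In translation itself *eef2l2*, a copy of the elongation factor that moves the ribosome along, rose from 828, 704 and 659 to 1514, 1379 and 1539 normalized counts (LFC 1.02, SE 0.15; edgeR with Benjamini-Hochberg adjustment, *P*-adj = 0.0308).

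**Figure D4:**
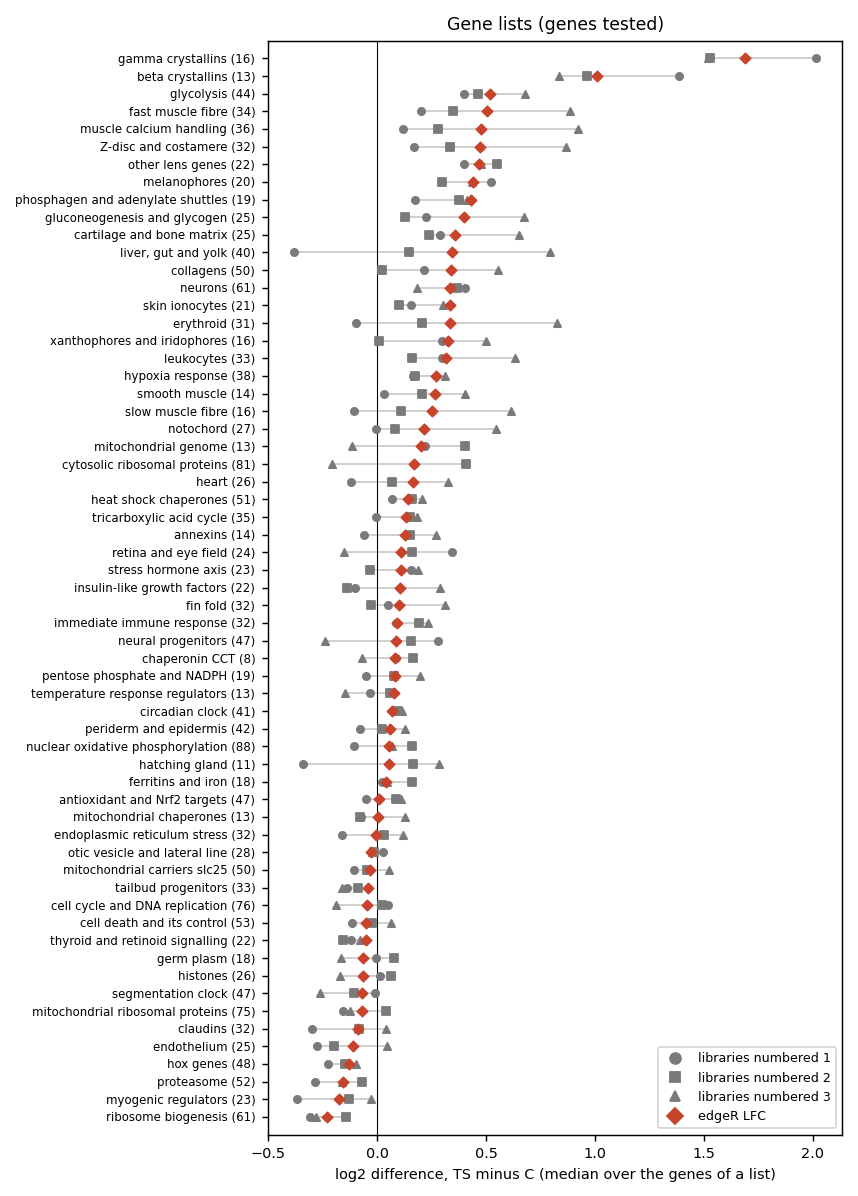
Median log2 difference between TS and C (x axis) of 61 gene lists, sorted by the median LFC over all 12 libraries (red diamonds), with grey markers for the median difference between libraries numbered 1, 2 and 3. Gamma and beta crystallins lie highest at 1.69 and 1.01, ribosome biogenesis lowest at -0.23, and the third pair runs apart from the others in the muscle, blood and yolk lists.

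Over the 61 lists, 44 medians were above 0 and 17 below, 18 were at least 0.3 and 5 at most -0.1. A gene at an unadjusted *P* of 0.01 was found in 36 lists, and a lower one in 6: calcium handling, myogenic regulators, segmentation, neural progenitors, ribosome biogenesis and the antioxidant list. Without TS replicate 3 the median of 14 lists turned sign, 11 of them from above to below 0. Without replicate 3 of both groups that of 10 lists did, among them the antioxidant list (0.01 to just below 0), and without C replicate 3 that of 4. The sign of the median was the same in the 3 pairs of libraries for 29 lists. Of the 272 genes at this threshold 133 were in a list, and the others were in none. The lists do not hold every gene of a function, so some of the others can belong to the functions listed.

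Of the genes outside the lists, *si:ch211-255p10.3* (ENSDARG00000096616), to which the files give no function, rose from 79.0, 52.5 and 82.1 to 231, 192 and 247 (LFC 1.65, SE 0.25; edgeR with Benjamini-Hochberg adjustment, *P*-adj = 0.0382). By the size of the change, *entpd3*, which breaks down extracellular ATP, was at 6.08, 12.6 and 15.9 in C and 71.1, 71.8 and 59.1 in TS (LFC 2.53, SE 0.45), and its groups were far apart without the *P*-adj passing 0.05. *CYB561A3* (ENSDARG00000028257), of the cytochrome b561 family, had only 2, 2 and 1 raw counts in the C libraries, no more than the limit of detection, and was at 11.4, 17.6 and 13.7 normalized counts in TS, at least 4.88-fold higher. *best1*, a chloride channel of the bestrophin family, had 7.09, 9.72 and 1.86 in C and 50.2, 65.0 and 19.2 in TS (LFC 2.82). *si:dkey-240n22.2* had an LFC of 2.48. On the lower side *zgc:154142* had 21.3, 34 and 17.7 in C and 4.74, 5.42 and 6.18 in TS (LFC -2.13). *AL935184.1* was at the limit of detection in TS, with 0, 1 and 1 raw counts against 17.2, 7.78 and 12.1 normalized counts in C, at least 4.14-fold lower. *BX005392.3* had 439, 194 and 82.1 in C and 28.4, 73.1 and 74.2 in TS, with C replicate 1 far above the other C libraries.

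The following genes at an unadjusted *P* of 0.01 were chosen after their values were seen, for their known roles. *tnni4b.2* and *tnnt2d*, troponin genes, had LFCs of 0.82 and 0.92. *ABRA*, an actin-binding gene of muscle, had 53.7, 59.3 and 40.1 in C and 127, 112 and 99.0 in TS (LFC 1.14). *nme2b.2*, a nucleoside diphosphate kinase, had 2391, 2106 and 1696 in C and 4390.4, 3731 and 3342 in TS (LFC 0.89), and *ngs*, a gene named for the notochord granular surface, 4352, 3677 and 1997 in C and 7247, 7929 and 4844 in TS (LFC 1.00). *ora3*, an olfactory receptor gene, had 1, 1 and 1 raw counts in C, under the limit of detection, and was at 5.68, 9.48 and 11.7 normalized counts in TS, at least 3.07-fold higher. On the lower side were *olfcb1*, another olfactory receptor gene (58.8, 56.4 and 49.4 in C, 28.4, 23.0 and 18.6 in TS, LFC -1.23), *FST* (ENSDARG00000052846), which encodes follistatin, a binder of activin and myostatin (1513, 1614 and 1099 in C, 832, 857 and 821 in TS, LFC -0.75), *ctsll*, a cathepsin L gene (512, 295 and 585 in C, 198, 171 and 202 in TS, LFC -1.28), and *uox*, urate oxidase (349, 293 and 224 in C, 143, 158 and 82.5 in TS, LFC -1.18). *foxh1*, which carries Nodal signals in the early embryo, had 11.1, 15.6 and 6.53 in C and 2.84, 2.71 and 3.44 in TS. *sycp3*, a meiotic chromosome axis gene, had 103, 125 and 109 in C and 61.6, 54.2 and 43.3 in TS (LFC -1.09).

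The same heat cycles were given to embryos in stress medium, and TS + SM against SM shares no library with TS against C, though both draw on 1 estimate of the spread. In that contrast edgeR called 0.0856% of genes higher and 0.0214% lower at a *P*-adj of 0.05, and 1.46% and 0.546% at an unadjusted *P* of 0.01. All 18 genes called in fresh medium had the same sign and an unadjusted *P* of 0.01 or less in stress medium, and 11 of them passed a *P*-adj of 0.05 there, 9 higher and 2 lower (2 of the 18 without SM replicate 1, 2 or 3 or TS + SM replicate 1, and 15 without TS replicate 3). *hsp90aa1.2* had 492, 449 and 516 normalized counts in SM and 2208, 1809 and 1656 in TS + SM, an LFC of 1.96 (SE 0.17) beside 1.92 in fresh medium. *hsp70.3* had 102, 86.9 and 78.3 in SM and 267, 257 and 242 in TS + SM (LFC 1.52), and *tcap* 27.9, 22.6 and 19.8 and 90.3, 69.7 and 112 (LFC 1.95). *eef2l2* and *mipa* had LFCs of 0.98 and 1.14 there. Of the 272 genes at an unadjusted *P* of 0.01, 256 (94.1%) had the same sign in stress medium, against 66.4% of all genes, 147 were past the same threshold and 19 past a *P*-adj of 0.05.

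Of the list medians, 51 of 61 had the same sign in the other medium. Gamma crystallins were at 1.80 (1.69 in fresh medium), beta crystallins at 0.81 (1.01), fast muscle at 0.73 (0.51), glycolysis at 0.50 (0.52), neurons at 0.49 (0.33) and ribosome biogenesis at -0.17 (-0.23). Leukocytes were at -0.06 (0.31), liver, gut and yolk at -0.01 (0.34) and the mitochondrial genome at -0.19 (0.20). Of these, the last 3 did not keep the sign of the median.

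The difference of the heat effect between the media was tested as an interaction. Over all genes 0 reached a *P*-adj of 0.05 in edgeR with Benjamini-Hochberg adjustment, and 171 an unadjusted *P* of 0.05, 0.401% of genes with a higher and 0.514% with a lower LFC in stress medium. Among the 18 called genes these were *her1* (LFC -2.88 in fresh and -1.84 in stress medium) and *ggact.2*, and among the 272 there were 25. Both sets were chosen by their difference in fresh medium, which enters the interaction. That choice by itself raises the number of hits, so the 25 cannot be set against the share over all genes. *best1*, for which SM libraries held 17.1, 86.9 and 32.0 and TS + SM libraries 6.58, 11.6 and 4.85 normalized counts, had an LFC of -2.57 (SE 0.73) in stress medium against 2.82 (SE 0.74) in fresh medium. *AL935184.1* was at 0, 0 and 0 in SM and 1.2, 0 and 10.9 in TS + SM, again in the opposite direction. *CU633479.2*, named myosin 7 by the paper (chosen after its values were seen), had LFCs of -1.07 in fresh and 0.60 in stress medium. None of these differences passed the adjustment over all genes.

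**Figure D5:**
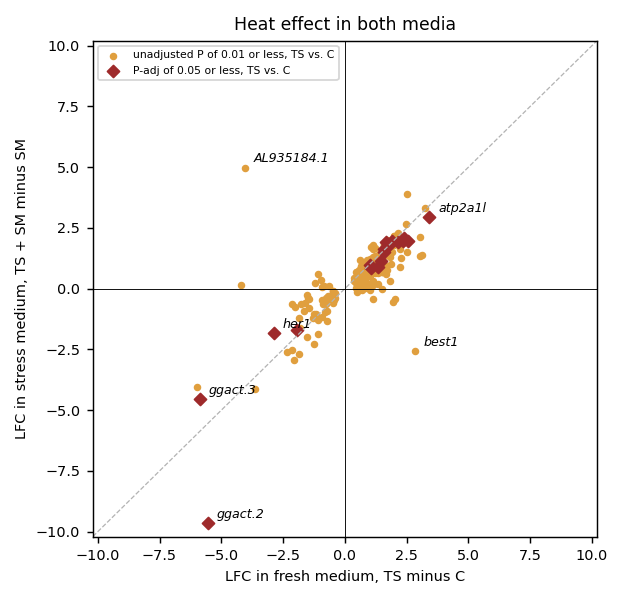
LFC of heat in fresh medium (TS against C, x axis) against LFC of heat in stress medium (TS + SM against SM, y axis), log2 scale, for the 272 genes at an unadjusted *P* of 0.01 in TS against C, with the 18 genes at a *P*-adj of 0.05 as diamonds and the line of equal LFC dashed. The 18 diamonds have the same sign in both media, 256 of the 272 points do, and *best1* and *AL935184.1* lie in the opposite quadrants.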

How the data were processed

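Polyadenylated RNA of whole-embryo pools was sequenced from stranded libraries (TruSeq stranded mRNA). The authors trimmed reads with fastp 0.23.1, aligned them to GRCz11 with STAR 2.6.1 and deposited STAR's gene counts, whole numbers without normalization (versions from the submitters' processing notes). Of 3 count columns, column 4, which counts reads of the second strand, was used for 32520 genes after 4 summary lines were dropped; these lines hold unmapped (3.40% to 4.09% in TS and C), multimapping, no-feature (9.42% to 11.9%) and ambiguous reads. Multimapping reads were not counted, so close paralogs can lose reads.

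The 12 libraries were fitted with edgeR 4.0.16 (TMM normalization, filterByExpr by group, robust quasi-likelihood *F* test, R 4.3.3), with 3 libraries per treatment, and TS was contrasted with C. In any list, the filter can admit a gene that is low in C through its heated libraries. *P* values are two-sided and were adjusted over 18688 genes. SE was the absolute LFC over the square root of *F*. Whether pools came from separate clutches is not given in the sources used here, so *P* values measure the spread between these pools. A group mean at or under 3 counts per library was taken as the limit of detection, and a fold against it is a lower bound. The script was tested on simulated counts.

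Replicate numbers come from the labels. Deviations of same-numbered TS and C libraries from their group means correlated at 0.614, 0.294 and 0.786 for numbers 1, 2 and 3. The numbers were treated as pairs, although C replicate 1 and TS replicate 2 also correlated (0.578), as did C replicate 2 and TS replicate 1 (0.262). Numbers 1 and 2 are thus hardly told apart as pairs, and the labels do not say what a number marks.

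Symbols came from a name table and from RefSeq; names in capitals can be shared by zebrafish paralogs, and the gene identifier is given where a symbol has several. Of 1632 names asked for in 61 lists, 47 had no match, and 1912 list genes were tested. The lists and the comparison were chosen with earlier results of these data known. Genes were named at a *P*-adj of 0.05, among the 10 largest rises and falls at an unadjusted *P* of 0.01 without overlap and with at least 10 normalized counts in the higher group, and in each list by the 6 smallest *P*, the 3 highest levels or as paralogs of a called gene. Others were chosen after their values were seen. Alternatives were DESeq2 1.42.0, its size factors, no filter, the replicate block, unstranded counts, thinned libraries, the 6 libraries alone and leaving out libraries. Some list members are not reported here.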

Additional observations from a re-analysis of the deposited data

How the results depend on the processing

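Across the alternatives run, none of the 18 genes at a *P*-adj of 0.05 nor of the 112 other genes named at an unadjusted *P* of 0.01 changed the sign of its LFC. The groups did not overlap for the 18 genes or for 268 of the 272 at an unadjusted *P* of 0.01. Leaving out libraries of TS or C could therefore hardly turn a sign, and the kept signs add little. Of 88 genes given as values without a call, 44 changed sign under at least 1 alternative. DESeq2 called 97 genes higher and 16 lower at a *P*-adj of 0.05, and 18 of the 18 in stress medium. The 6 libraries alone gave 0 higher and 0 lower, though 221 and 47 at an unadjusted *P* of 0.01. With the replicate block added to the 6 libraries, an alternative chosen after seeing the data, 253 were higher and 79 lower, and 617 and 260 at an unadjusted *P* of 0.01. With the replicate block over 12 libraries 15 were higher and 5 lower, *and2* and *cryba1l1* were lost, and *ldha*, *mespab*, *pdcd4b* and *pvalb4* were gained among the genes named; no other call of theirs changed. Thinned libraries lost *and2* and *tbx6* and gained *entpd3*, and *and1* was gained without the filter.

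With 1 library left out, or replicate 3 of both groups (runs without SM or TS + SM libraries and without replicate 3 of both were chosen after seeing the data), calls at a *P*-adj of 0.05 ranged from 4 (without C replicate 2) to 15 higher and from 1 (without TS replicate 1) to 4 lower; higher calls numbered 7 without TS replicate 1 or SM replicate 3, 6 without TS replicate 2 or C replicate 1 and 9 without SM replicate 1. At an unadjusted *P* of 0.01 they ranged from 120 (without C replicate 2) to 253 (without TS replicate 3) higher and from 19 (without C replicate 1) to 102 (without C replicate 3) lower. Of the 18 genes, 2 (without any 1 SM library or TS + SM replicate 1) to 15 (without TS replicate 3) passed in stress medium. Where a run left a group with 2 libraries the spread was pooled over the groups. List medians above 0 numbered 36 (without TS replicate 3) to 46 of 61 over all alternatives. Without TS replicate 3, 20 list medians moved by more than the SD of the pairs and hatching gland turned from 0.05 to -0.36. The cause of these shifts was not tested. Depth limits the genes with few counts, for which a fold against a group at or under 3 counts in every library is only a bound.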
